A study of Mus musculus with 18 samples.

Results

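Gene expression was compared between Dbl transgenic and wild type (wt) mouse lenses at 14 days of age, on 3 arrays of Dbl lenses and 3 arrays of wt lenses. These are 6 of the 18 arrays of a study that measured both genotypes at 2, 14 and 42 days with the Affymetrix Murine Genome U74Av2 oligonucleotide array. The arrays were taken by the age and genotype in their titles, and no measured value was used to choose them. Each array held the RNA of 1 of 3 independent pools of 4 to 8 whole lenses, so a value is an average over a pool and over the lens cells together with any tissue removed with them. In whole lenses fewer cells of a type and less RNA per cell cannot be told apart.

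The Dbl mice carry the cDNA of the Dbl oncogene, an amino-terminally truncated and constantly active form of the Dbl protein, behind the mouse metallothionein promoter. That promoter is not specific to the lens. The transgene was placed in FVB/N embryos, and carriers were crossed to Balb/c mice. No strain is named for the wt mice, the sources name 1 transgenic family and no second insertion, and no treatment is named for either genotype.

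The Dbl protein belongs to the guanine nucleotide exchange factors, enzymes that switch on other signaling proteins. The lens is a cyst of epithelium inside a collagenous capsule. Its front epithelial cells divide near the equator and turn into elongated fiber cells, which fill themselves with crystallins, join through connexins and the water channel Mip, build beaded filaments and then lose their organelles. A normal lens has no vessels of its own after the fetal vasculature has regressed, and few resident immune cells. The study states that in mice this regression starts after birth and is complete only at weaning, which is later than 14 days.

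Crystallins were bright in both genotypes, so lens RNA was present in each. Markers of the retina also had signal, most on Dbl replicates 2 and 3, and are given below. The 9 measured crystallins summed to a signal of 763461 to 797944 on the wt arrays and 266339 to 378007 on the Dbl arrays, where every array was scaled to a trimmed mean of 500. The dbl gene itself, Mcf2, has no probe set of its own among those named on this array, so the transgene could not be read. The replicate 1 array of both genotypes had been deposited on another scale, with a trimmed mean of 50.4 (wt) and 95.2 (Dbl) where the other 4 arrays had about 500. After scaling, the replicate 1 arrays still stood apart. Among probe sets whose signal averaged over 200 (6565 in number), log2 signals of Dbl replicate 1 correlated more with wt replicate 1 (r = 0.809) than with any other array, whereas Dbl replicates 2 and 3 correlated at 0.931 with each other. Deviations from the group mean went together between the Dbl and wt arrays of the same number, so a fit with the replicate number as a block is given wherever it changes a call, and values are shown per array in the order of replicates 1, 2 and 3.

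In the fit over all 12422 probe sets, 40 probe sets (0.322%) differed between Dbl and wt lenses at 14 days (limma, adjusted p below 0.05), 12 of them higher (0.0966%) and 28 lower (0.225%) in Dbl. On all 40 the 3 Dbl arrays and the 3 wt arrays did not overlap. The changes were large, from 2.60 to 6.19 on the log2 scale among those that rose and from -1.94 to -5.61 among those that fell. With the replicate number as a block, 109 probe sets were called, 17 higher (0.137%) and 92 lower (0.741%), and 37 of the 40 were among them. The count moved with single arrays: it was 100 without Dbl replicate 1, 6 without Dbl replicate 2, 6 without Dbl replicate 3, 17 without wt replicate 1, 14 without wt replicate 2 and 2 without wt replicate 3. Without both replicate 1 arrays 13 probe sets were called. Of the 12 that rose, 10 had a mean wt signal below 129, the mean 40th percentile of the arrays, which was taken as the level of background, and 5 of the 28 that fell had a mean Dbl signal below it. The size of those differences is therefore uncertain, since it rests on signals near background. The called probe sets named 8 genes that rose and 22 that fell, 5 probe sets had several symbols and 4 had none.

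Of the 8 genes that rose, Ccl2 and Ccl8 are on the list of chemokines and cytokines, Fcgr2b and Lcp1 on that of macrophage and myeloid markers, and Mmp12 on that of matrix proteases. Ccl2, the chemokine that draws monocytes, had the largest change: its signals were 22.5, 15.9 and 10.2 on the wt arrays and 5303, 502 and 539 on the Dbl arrays (log2 difference 6.19, SE 0.75, adjusted p = 0.00211). The 3 Dbl arrays were all far above the 3 wt arrays, and Dbl replicate 1 was the highest. Ccl8, a related chemokine, had signals of 145, 51.4 and 38.3 on the wt arrays and 2287, 864 and 498 on the Dbl arrays (log2 difference 3.92, SE 0.67, adjusted p = 0.0115). The lowest Dbl array was again above the highest wt array, and wt replicate 1 was the highest of its group.

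Mmp12, the macrophage elastase that degrades elastin and basement membrane, had signals of 112, 54.8 and 58.0 on the wt arrays and 1795, 1213 and 1153 on the Dbl arrays (log2 difference 4.26, SE 0.70, adjusted p = 0.00882). All 3 Dbl arrays lay within a narrow range, and the log2 difference was 4.01 between the replicate 1 arrays and 4.39 between replicates 2 and 3. Arg1, which splits arginine into ornithine and urea and is made by macrophages in tissue repair, had signals of 17.5, 22.4 and 20.4 on the wt arrays and 1868, 327 and 311 on the Dbl arrays (log2 difference 4.84, SE 0.98, adjusted p = 0.0441). Its wt signals were all near background and Dbl replicate 1 was several times higher than the other Dbl arrays. Fcgr2b, the inhibitory receptor for immunoglobulin G on B cells and macrophages, had signals of 9.07, 11.3 and 4.60 on the wt arrays and 321, 179 and 256 on the Dbl arrays (log2 difference 4.98, SE 0.74, adjusted p = 0.00752).

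Srgn, the proteoglycan that packs secretory granules of blood cells, had signals of 12.9, 19.5 and 8.05 on the wt arrays and 194, 264 and 227 on the Dbl arrays (log2 difference 4.16, SE 0.67, adjusted p = 0.00882). Lcp1, an actin-bundling protein of leukocytes, had signals of 54.8, 72.8 and 32.2 on the wt arrays and 409, 231 and 299 on the Dbl arrays (log2 difference 2.60, SE 0.54, adjusted p = 0.0441). In both genes the groups were apart on every array, with the wt arrays below the background level. Slc44a1, a choline transporter found in many cell types, had signals of 43.1, 63.0 and 51.9 on the wt arrays and 535, 583 and 365 on the Dbl arrays (log2 difference 3.22, SE 0.57, adjusted p = 0.0139). Of the probe sets with several symbols, the one shared by the lysozyme genes Lyz1 and Lyz2 had signals of 18.5, 19.9 and 25.9 on the wt and 2791, 777 and 735 on the Dbl arrays (log2 difference 5.78, SE 1.01, adjusted p = 0.0139), and the one shared by the class I genes H2-T9, H2-T22 and H2-T10 rose by 3.43 on the log2 scale (adjusted p = 0.00752). These 2 probe sets cannot be given to 1 gene.

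**Figure D1:**
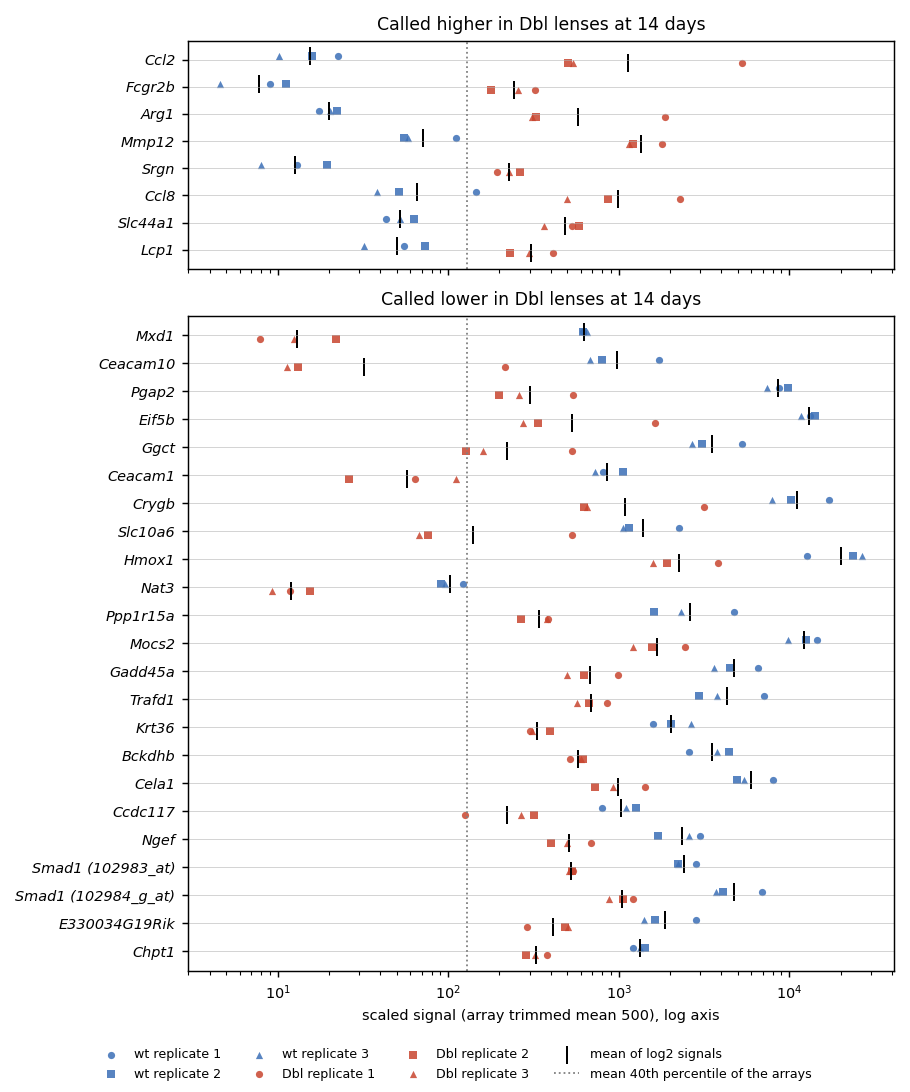
Scaled signal (log axis) of each gene with 1 symbol called at 14 days, with 1 point per array (blue wt, red Dbl, shape for the replicate number), black ticks for the mean of the log2 signals and a dotted line at the background level of 129. Every wt array of the 8 genes of the upper panel lies left of every Dbl array, and every wt array of the lower panel lies right of every Dbl array. Nat3 is the only gene whose means lie below the dotted line in both groups.

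The 22 genes that fell are taken by their roles, first translation and the response to stress. Eif5b, the factor that joins the ribosomal subunits at the start codon, had signals of 13203, 14091 and 11785 on the wt arrays and 1627, 335 and 275 on the Dbl arrays (log2 difference -4.61, SE 0.73, adjusted p = 0.00882). The Dbl arrays were all far below the wt arrays, with Dbl replicate 1 the highest of the 3, and the second probe set of Eif5b had a log2 difference of -1.72 (adjusted p = 0.534). Ppp1r15a, which brings a phosphatase to the initiation factor eIF2 alpha and so restarts translation after stress, had signals of 4770.3, 1615 and 2312 on the wt arrays and 384, 268 and 378 on the Dbl arrays (log2 difference -2.95, SE 0.61, adjusted p = 0.0441). Gadd45a, a growth arrest protein induced by DNA damage, had signals of 6552, 4502 and 3637 on the wt arrays and 986, 623 and 500.2 on the Dbl arrays (log2 difference -2.82, SE 0.58, adjusted p = 0.0441). The call of Gadd45a was lost with the replicate block, where the adjusted p was 0.0539, and its adjusted p ran from 0.00223 to 0.243 over the alternatives. Hmox1, the enzyme that degrades heme, had signals of 12649.7, 23557 and 26789 on the wt arrays and 3819, 1914 and 1580.5 on the Dbl arrays (log2 difference -3.14, SE 0.65, adjusted p = 0.047).

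The next genes act in signaling and transcription. Mxd1, a partner of Max that opposes Myc, had the largest fall, with signals of 619, 618 and 652 on the wt arrays and 7.84, 22.1 and 12.5 on the Dbl arrays (log2 difference -5.61, SE 1.03, adjusted p = 0.0196). The 3 wt arrays differed little and the 3 Dbl arrays were all near background. With the replicate block the adjusted p of Mxd1 was 0.0531 (range over the alternatives 0.00855 to 0.309). Smad1, which carries signals from receptors of bone morphogenetic proteins into the nucleus, was called on both of its probe sets. Its brighter probe set had signals of 6918, 4113 and 3710.3 on the wt arrays and 1218, 1060.3 and 878 on the Dbl arrays (log2 difference -2.18, SE 0.42, adjusted p = 0.0279), and the other fell by 2.20 (adjusted p = 0.00882). Ngef, a guanine nucleotide exchange factor of the same family as Dbl, had signals of 2988, 1694 and 2599.7 on the wt arrays and 684, 399 and 500.03 on the Dbl arrays (log2 difference -2.20, SE 0.37, adjusted p = 0.0102). Trafd1, which dampens innate immune signaling, fell by 2.64 on the log2 scale (adjusted p = 0.0115).

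Of the genes of adhesion and structure, Ceacam1 and Ceacam10, 2 members of the carcinoembryonic antigen family, both fell. Ceacam1 had signals of 809, 1058 and 722 on the wt arrays and 64.3, 26.1 and 110.5 on the Dbl arrays (log2 difference -3.90, SE 0.66, adjusted p = 0.0115). Ceacam10 had signals of 1720.1, 799.5 and 679 on the wt arrays and 216, 13.2 and 11.4 on the Dbl arrays (log2 difference -4.94, SE 1.01, adjusted p = 0.0441). The Dbl arrays of both genes were near background, except for replicate 1 of Ceacam10. Krt36, a keratin known from hair, fell by 2.61 (adjusted p = 0.017). Crygb, which encodes gamma B crystallin, was called on its dimmer probe set, with signals of 17101, 10225 and 7921 on the wt arrays and 3144, 628 and 652 on the Dbl arrays (log2 difference -3.36, SE 0.69, adjusted p = 0.0441). That probe set is of the kind that can bind several members of a gene family, and the brighter probe set of Crygb is described with the other crystallins.

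The remaining genes that fell are mostly enzymes and transporters. Pgap2, which matures the lipid anchors of surface proteins, had signals of 8697, 9779 and 7378 on the wt arrays and 541, 198 and 259 on the Dbl arrays (log2 difference -4.82, SE 0.79, adjusted p = 0.00882). Ggct, an enzyme of glutathione breakdown, had signals of 5258, 3097 and 2697 on the wt arrays and 532, 128 and 159 on the Dbl arrays (log2 difference -3.995, SE 0.64, adjusted p = 0.00882). Slc10a6, a transporter of sulfated steroids, had signals of 2244, 1155 and 1053 on the wt arrays and 532, 76.3 and 67.5 on the Dbl arrays (log2 difference -3.32, SE 0.62, adjusted p = 0.0243). In each of these 3 genes the replicate 1 array was the highest of the Dbl group, and no Dbl array reached a wt array. Mocs2, a subunit of the enzyme that makes molybdopterin, had signals of 14614, 12604 and 9820.4 on the wt arrays and 2432, 1561 and 1218 on the Dbl arrays (log2 difference -2.87, SE 0.45, adjusted p = 0.00882). Bckdhb, a subunit of the dehydrogenase of branched-chain keto acids, had signals of 2586, 4416 and 3780.2 on the wt arrays and 518, 617 and 602 on the Dbl arrays (log2 difference -2.60, SE 0.39, adjusted p = 0.00752). These 2 genes had nearly the same difference on every pair of arrays, -2.59, -3.01 and -3.01 for Mocs2 and -2.32, -2.84 and -2.65 for Bckdhb.

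Chpt1, which makes phosphatidylcholine, fell by 2.02 (adjusted p = 0.0441), and Cela1, a serine protease of the elastase family, by 2.60 (adjusted p = 0.00882). Ccdc117 and E330034G19Rik, for which no role is stated here, fell by 2.23 and 2.18 (adjusted p = 0.0474 and 0.0441). Nat3, an acetyltransferase, had signals of 122, 91.3 and 96.1 on the wt arrays and 11.9, 15.5 and 9.25 on the Dbl arrays (log2 difference -3.10, SE 0.61, adjusted p = 0.0365). Its means were below the background level in both groups, and its call was lost with the replicate block (adjusted p = 0.0539, range over the alternatives 0.0236 to 1). The probe sets with several symbols that fell belonged to a cluster of histone H3 genes (-2.98), to Raet1e and Raet1d (-2.71) and to Cbx3 and a copy of it (-2.67), each given as a log2 difference.

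Promoter windows from RefSeq (GRCm38.p6), of 250 bases before to 50 bases after a start, were matched by symbol to 25 of the 30 called genes. The stretches before the start are shown for a chemokine that rose, for the crystallin that fell and for the stress gene Gadd45a, each with 1 annotated window, 5′ to 3′ on the strand of the gene. Capitals mark matches, on either strand, to the Maf core TGCTGA (Maf proteins drive fiber genes) or to the NF-kB motif (GGG, 5 bases of any kind, CC), and overlapping matches run together.

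Ccl8, chr11:82114935-82115184, plus strand: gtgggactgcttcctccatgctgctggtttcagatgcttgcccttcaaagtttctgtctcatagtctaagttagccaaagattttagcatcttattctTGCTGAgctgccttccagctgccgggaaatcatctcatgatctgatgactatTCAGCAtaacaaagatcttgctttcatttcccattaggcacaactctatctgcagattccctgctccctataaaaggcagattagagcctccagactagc
Crygb, chr1:65082291-65082540, minus strand: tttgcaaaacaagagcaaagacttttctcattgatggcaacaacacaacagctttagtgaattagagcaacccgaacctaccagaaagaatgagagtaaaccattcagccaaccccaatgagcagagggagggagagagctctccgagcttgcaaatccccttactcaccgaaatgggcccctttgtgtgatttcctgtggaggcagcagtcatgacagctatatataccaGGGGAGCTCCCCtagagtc
Gadd45a, chr6:67037408-67037657, minus strand: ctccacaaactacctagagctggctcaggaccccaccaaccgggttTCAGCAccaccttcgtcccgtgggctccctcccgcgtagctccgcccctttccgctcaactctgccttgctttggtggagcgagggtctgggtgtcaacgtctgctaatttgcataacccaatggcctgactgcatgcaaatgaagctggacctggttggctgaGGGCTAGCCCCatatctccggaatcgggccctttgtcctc

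In Ccl8 the Maf core began 152 bases before the start and its reverse complement 100 bases before it. In Crygb the overlapping NF-kB matches began 19 bases before the start, and in Gadd45a they began 40 bases before it, with a reversed Maf core at 204 bases. Over the windows of a gene, the Maf core was present in 1 of the 6 genes that rose and have a window, in 8 of the 19 that fell (42.1%) and in 21.7% of all 27025 genes. The NF-kB motif was in 4 of 6, in 17 of 19 (89.5%) and in 53.5% of all genes. The AP-1 motif TGANTCA was in 1 of 6 (Mmp12), in 1 of 19 (Mocs2) and in 8.97% of all genes, and the heat shock motif GAANNTTC was in 0 of 6, in 1 of 19 (Eif5b) and in 9.04%. Only 1 form of the SRF motif was searched (CC, ATATTA and GG in 1 run). It was in none of these 25 genes and in 0.0777% of all genes, so its absence from the 25 says little. A match is a run of letters and was not tested for binding.

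All 9 measured crystallins, the structural proteins of fiber cells, were lower on every Dbl array than on any wt array. Over all probe sets, 8.07% were lower without overlap and 7.17% higher without overlap, and over 8251 genes taken by their brightest probe set these shares were 8.16% and 7.85%. The median log2 difference of the 9 was -1.42, against 0.05 over the 8251 genes. None of the 9 was called on its brightest probe set in the fit without a block, and with the replicate block 4 were called, all lower. Crygc, the gamma C crystallin, had signals of 98756, 94184 and 95792 on the wt arrays and 43592, 11376 and 16814 on the Dbl arrays (log2 difference -2.25, SE 0.55, adjusted p = 0.116; adjusted p = 0.0158 with the replicate block and 0.0158 to 0.464 over all alternatives). Dbl replicate 1 kept the highest crystallin signal of the Dbl arrays for this gene.

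The other 3 crystallins called with the block were Crygb, Crygd and Cryab. Crygb had signals of 60305, 60701 and 60966 on the wt arrays and 26860.1, 11460.1 and 11342 on the Dbl arrays (log2 difference -1.999, SE 0.55, adjusted p = 0.157; with the block 0.0274). Crygd had signals of 97656, 114724 and 113929 on the wt arrays and 55211, 23562 and 27111 on the Dbl arrays (log2 difference -1.73, SE 0.50, adjusted p = 0.187; with the block 0.0316). Cryab, the small heat shock protein among the crystallins, had signals of 31793, 20153 and 24995 on the wt arrays and 14173, 6119 and 6150.3 on the Dbl arrays (log2 difference -1.64, SE 0.51, adjusted p = 0.251; with the block 0.0233). Over all alternatives the adjusted p of these 3 reached 0.527, 0.763 and 0.672. The probe sets read for Crygd, Cryab and Cryge are also of the kind that can bind several members of a gene family. The crystallins are therefore not fully separate readings.

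The remaining 5 did not pass the test with or without the block. Crygs had a log2 difference of -1.33 (adjusted p = 0.289), Cryge of -1.17 (adjusted p = 0.374), Crybb2 of -1.42 (adjusted p = 0.553), Cryaa of -0.99 (adjusted p = 0.503) and Cryba1 of -0.86 (adjusted p = 0.623). Cryaa, the alpha A chaperone and the brightest crystallin of the wt lens, had signals of 103097, 120759 and 114031 on the wt arrays and 50899, 54712 and 64531 on the Dbl arrays, so its group ranges were close compared with those of the gamma crystallins. After quantile normalization the log2 differences of Cryge and Cryba1 changed sign, to 0.03 and 0.26. A second, dim probe set of Crybb2 had a difference of 0.84 with overlapping arrays. The wt crystallin signals lie at the top of the range of the arrays, where the highest deposited signal of wt replicate 2 was 120835.

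**Figure D2:**
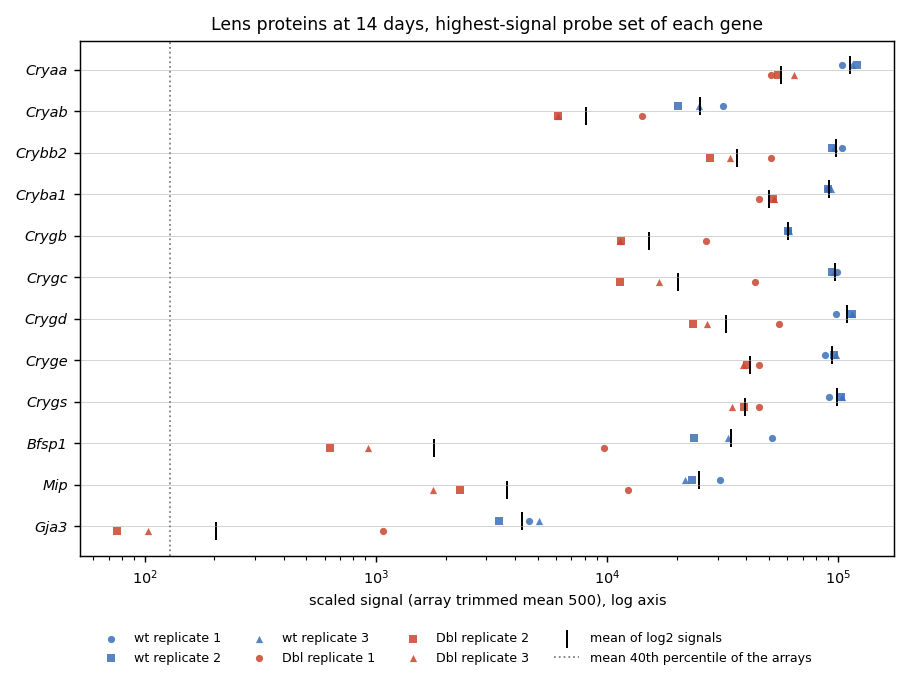
Scaled signal (log axis) of the 9 measured crystallins and of the fiber genes Bfsp1, Mip and Gja3, with 1 point per array (blue wt, red Dbl, shape for the replicate number), black ticks for the mean of the log2 signals and a dotted line at the background level of 129. All Dbl points lie left of all wt points, and for Bfsp1, Mip and Gja3 the Dbl replicate 1 array lies between the wt arrays and Dbl replicates 2 and 3.

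Genes of fiber cells other than crystallins were also lower in Dbl lenses. All 12 measured fiber genes had a negative log2 difference, 7 of them without overlap, with a median of -2.41. None passed the test without a block and 4 did so with it, all lower. Bfsp1, which encodes filensin of the beaded filament, had signals of 51412, 23813 and 33306 on the wt arrays and 9722, 635 and 928 on the Dbl arrays (log2 difference -4.27, SE 0.96, adjusted p = 0.0758; adjusted p = 0.00776 with the replicate block and 0.00776 to 0.325 over all alternatives). The difference was -2.40 between the replicate 1 arrays and -5.20 between replicates 2 and 3. Gja3, the connexin that couples fiber cells, had signals of 4599.8, 3398 and 5091 on the wt arrays and 1069.8, 76.3 and 103 on the Dbl arrays (log2 difference -4.40, SE 1.18, adjusted p = 0.153; with the block 0.0226). In these 2 genes Dbl replicates 2 and 3 lay far below the wt arrays, and Dbl replicate 1 lay between them and the wt arrays.

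Transcription factors of the fiber program were among the block calls. Prox1, needed for fiber elongation, had signals of 1331, 2134 and 2087 on the wt arrays and 425, 407 and 479 on the Dbl arrays (log2 difference -2.05, SE 0.60, adjusted p = 0.199; with the block 0.0159). Hsf4, the heat shock factor of the lens, had signals of 4651, 695 and 1095 on the wt arrays and 949, 12.2 and 37.4 on the Dbl arrays (log2 difference -4.33, SE 1.29, adjusted p = 0.217; with the block 0.00894), and its groups overlapped at Dbl replicate 1. Over all alternatives the adjusted p reached 0.509 for Gja3, 0.488 for Prox1 and 0.697 for Hsf4. Mip, the water channel of fiber membranes, had signals of 30833, 23361 and 21758 on the wt arrays and 12329, 2311 and 1772 on the Dbl arrays (log2 difference -2.76, SE 0.96, adjusted p = 0.341), and its adjusted p with the block was 0.0526. The median over the fiber genes was -1.63, -2.86 and -2.36 for replicates 1, 2 and 3, so it was negative on each pair of arrays and smallest in size on the first.

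Genes of the lens epithelium did not move in 1 direction. Of 17 measured, none was called with or without the block, 2 were higher and 2 lower without overlap, and the median was -0.15. Fgfr3 and Fgfr2, receptors for the fibroblast growth factors that drive fiber differentiation, were the 2 that were lower without overlap, with log2 differences of -1.72 (adjusted p = 0.241) and -1.15 (adjusted p = 0.418). Sfrp1, a secreted inhibitor of Wnt signals, had signals of 6103, 2112 and 3368 on the wt arrays and 5191, 517 and 504 on the Dbl arrays, which split by replicate number rather than by genotype alone: Dbl replicates 2 and 3 were far below all other arrays. The transcription factor Tfap2a had a difference of 0.67 (adjusted p = 0.685). The 25 junction and keratin genes had a median of 0.17, with 3 higher and 3 lower without overlap and none called. The gap junction gene Gjb2 had a difference of 2.45 (adjusted p = 0.181) and the tight junction scaffold Tjp1 of -0.98 (adjusted p = 0.526).

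Of 11 transcription factors of epithelial-mesenchymal transition, none was called, and the median was -0.09. Klf4 and Prrx1 were higher without overlap, with log2 differences of 2.49 (adjusted p = 0.13) and 1.93 (adjusted p = 0.312), and Tcf3 was lower without overlap (-1.07, adjusted p = 0.37). Zeb1, a repressor of epithelial genes, had a difference of -0.38 (adjusted p = 0.794). The mean wt signals of Klf4 and Prrx1 were below the background level.

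The capsule of the lens is made of collagen IV and laminin. Of 21 measured genes of basement membranes none was called, 2 were higher and 1 lower without overlap, and the median was -0.12. The 1 lower without overlap was the collagen IV chain Col4a1, named after its values were seen, with signals of 10695, 17712 and 15282 on the wt arrays and 9837, 6516 and 7105 on the Dbl arrays and a log2 difference of -0.89 (adjusted p = 0.717). Its partner chain Col4a2 had signals of 16014, 5220.5 and 5975 on the wt arrays and 12458, 1009 and 1574 on the Dbl arrays and a log2 difference of -1.55 (adjusted p = 0.634), and the linker Nid1 had a difference of -1.80 (adjusted p = 0.503). Their replicate 1 arrays gave -0.36 and -0.57, and replicates 2 and 3 gave -2.15 and -2.41. The 2 higher were Agrn and Col15a1, a proteoglycan and a collagen of basement membranes (log2 differences 1.09 and 1.58, adjusted p = 0.375 and 0.463).

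Genes of interstitial matrix leaned higher, with no call. Of 29 measured, 8 were higher and 1 lower without overlap, and 23 had a positive difference, with a median of 0.50. Col1a1, the main fibrillar collagen chain, had signals of 156, 44.4 and 20.6 on the wt arrays and 2778, 240.3 and 329.9 on the Dbl arrays (log2 difference 3.53, SE 1.09, adjusted p = 0.24). Tgfbi, a matrix protein induced by TGF beta, had signals of 35.4, 18.5 and 72.0 on the wt arrays and 1945, 149 and 199 on the Dbl arrays (log2 difference 3.42, SE 0.91, adjusted p = 0.149). In both genes Dbl replicate 1 was many times higher than Dbl replicates 2 and 3. Postn and Tnc, matrix proteins of tissue repair, had differences of 2.03 (adjusted p = 0.301) and 1.83 (adjusted p = 0.256). The 1 lower without overlap was Vim, which encodes vimentin, with a difference of -0.95 (adjusted p = 0.62). Its mean signals were 238 in wt and 124 in Dbl, the latter below background. Col1a2, the partner chain of Col1a1, had overlapping arrays, a difference of -0.14 and mean signals of 1778 in wt and 1702 in Dbl. The median over the list was 1.22, 0.28 and 0.35 for replicates 1, 2 and 3.

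Of 22 matrix proteases and inhibitors, Mmp12 was the 1 call, 5 were higher and 0 lower without overlap, and the median was 0.62. Timp1, an inhibitor of these proteases, had signals of 779, 885 and 889 on the wt arrays and 19837, 1939.8 and 3199 on the Dbl arrays (log2 difference 2.55, SE 0.64, adjusted p = 0.122), with every Dbl array above every wt array. Plat, the tissue plasminogen activator, had signals of 558, 1246 and 1237 on the wt arrays and 4173, 1739 and 2145 on the Dbl arrays (log2 difference 1.39, SE 0.38, adjusted p = 0.161). Mmp2, the gelatinase, had the opposite sign, -2.53 (adjusted p = 0.278), from signals near background.

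**Figure D3:**
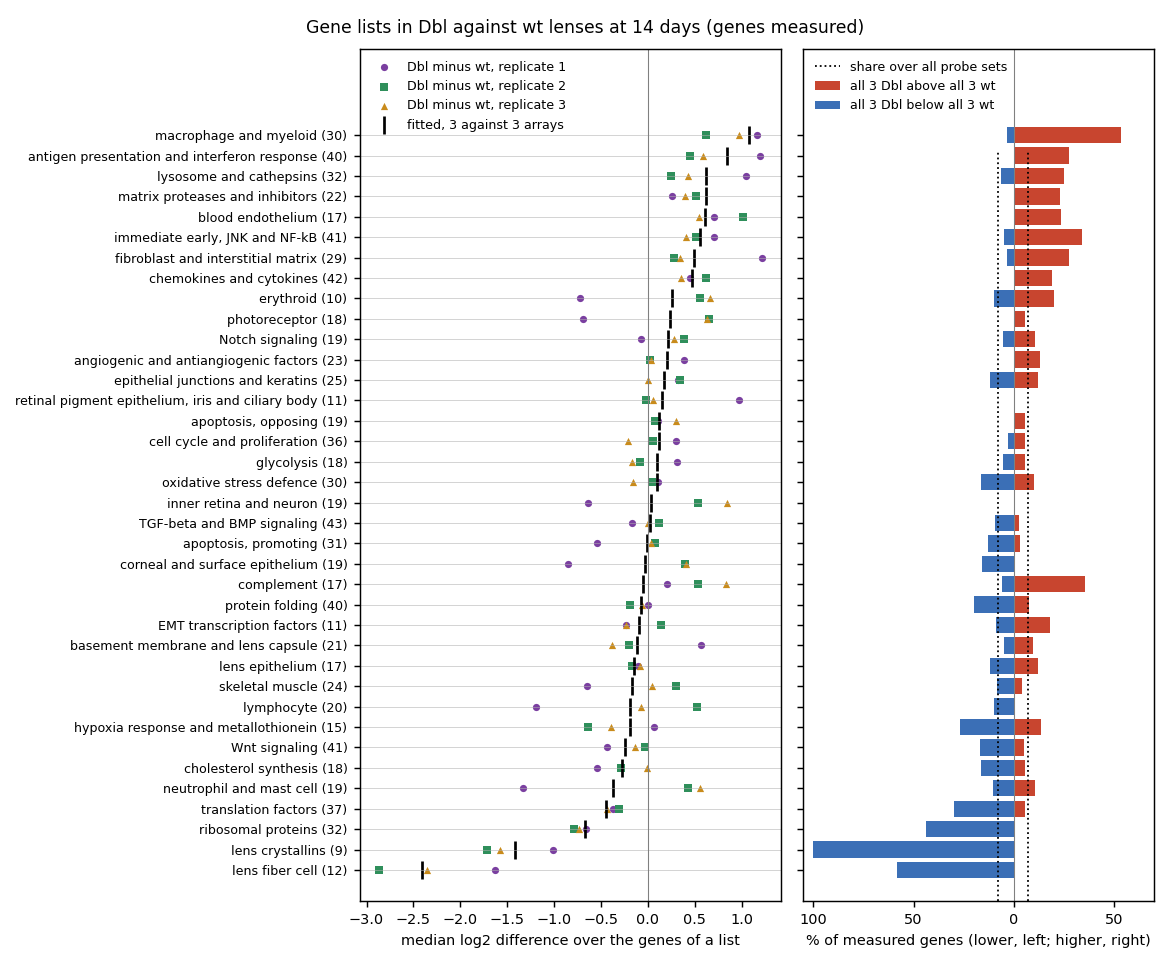
Left, median log2 difference (Dbl minus wt) over the measured genes of each list, for each pair of arrays of the same replicate number (coloured points) and for the fit (black tick). Right, share of the measured genes of a list whose 3 Dbl arrays were all above (red, to the right) or all below (blue, to the left) the 3 wt arrays, with dotted lines at the shares over all probe sets, 7.17% and 8.07%. Crystallins and fiber genes lie at the bottom with 9 of 9 and 7 of 12 lower, and the macrophage and myeloid list at the top with 16 of 30 higher.

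Markers of macrophages and other myeloid cells were the list with the highest median, 1.08. Of 30 measured genes 16 were higher and 1 lower without overlap, and Fcgr2b and Lcp1 were called. Lyz2, the lysozyme of macrophages, was called higher with the replicate block, with signals of 24.1, 117 and 19.8 on the wt arrays and 2630.1, 697 and 639.9 on the Dbl arrays (log2 difference 4.79, SE 1.11, adjusted p = 0.0897; adjusted p = 0.0157 with the replicate block and 0.0157 to 0.415 over all alternatives), while a second probe set of it had a difference of -0.05. The summed signal of the list was 9381, 13370.5 and 14382 on the wt arrays and 33942, 17396 and 19765 on the Dbl arrays. The groups did not overlap, with the lowest wt and the highest Dbl sum both on replicate 1 arrays. Part of the list therefore had signal in wt lenses. Ctss, a protease of macrophage lysosomes, had signals of 240.1, 1956 and 1930.3 on the wt arrays and 5155, 6402 and 6765 on the Dbl arrays (log2 difference 2.65, SE 0.80, adjusted p = 0.225). The sums were apart only with Ctss included. Without it the sum of Dbl replicate 2 lay below those of wt replicates 2 and 3.

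The 2 probe sets of C1qb, a chain of the first component of complement, went opposite ways. The brighter one had signals of 3349.6, 5648 and 6378 on the wt arrays and 1356, 716 and 1029.5 on the Dbl arrays (log2 difference -2.31, SE 0.61, adjusted p = 0.146) and was called lower with the block (adjusted p = 0.0158 with the replicate block and 0.0158 to 0.474 over all alternatives). The other had signals of 53.7, 189 and 255 on the wt arrays and 2583, 525 and 550.4 on the Dbl arrays (log2 difference 2.72, SE 0.95, adjusted p = 0.346). C1qa and C1qc, which encode the other chains, had differences of 2.32 (adjusted p = 0.241) and 1.54 (adjusted p = 0.453), both higher without overlap. C3ar1, the receptor for the complement fragment C3a, had signals of 92.9, 97.4 and 65.8 on the wt arrays and 357, 397 and 389.8 on the Dbl arrays and an adjusted p of 0.0514, just above the threshold, at a log2 difference of 2.18. Of the 17 measured complement genes 6 were higher and 1 lower without overlap, and the median was -0.05.

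Of 42 chemokines and cytokines, Ccl2 and Ccl8 were called and 8 were higher and 0 lower without overlap, with a median of 0.47. In 25 of the 42 both group means were below background. Ccl9, a chemokine of macrophages, had signals of 38.9, 65.7 and 54.1 on the wt arrays and 5277, 416 and 318 on the Dbl arrays (log2 difference 4.10, SE 0.95, adjusted p = 0.0897). Cxcl1, which attracts neutrophils, had signals of 36.7, 24.3 and 75.0 on the wt arrays and 944, 207 and 261 on the Dbl arrays (log2 difference 3.19, SE 0.91, adjusted p = 0.182). Neither passed the threshold, and the Dbl arrays of both spread over a wide range.

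Genes of antigen presentation and of the interferon response had a median of 0.85 over 40 genes, of which 11 were higher and 0 lower without overlap and none was called. Psmb8, a subunit of the immunoproteasome, had a log2 difference of 2.87 (adjusted p = 0.0942). The class I chain H2-K1 had signals of 735, 1074 and 1399 on the wt arrays and 6626, 2155 and 3251 on the Dbl arrays (log2 difference 1.80, SE 0.55, adjusted p = 0.225), and its partner B2m had a difference of 1.91 (adjusted p = 0.4). H2-DMa, which loads class II molecules, had a difference of 1.44 (adjusted p = 0.374). Lysosomal genes had a median of 0.62, with 8 of 32 higher and 2 lower without overlap and none called. Besides Ctss, the cathepsin Ctsc had a difference of 1.89 (adjusted p = 0.256), and the lysosomal membrane proteins Cd63 and Cd68 of 1.04 (adjusted p = 0.313) and 1.39 (adjusted p = 0.322).

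No gene on the lists of lymphocytes or of neutrophils and mast cells was called, with or without the block. The 20 lymphocyte markers had a median of -0.19, with 0 higher and 2 lower without overlap, and 10 were below background in both groups. The B cell gene Cd79b had the smallest p of the list, with a difference of -2.12 (adjusted p = 0.526). Markers of neutrophils and mast cells had a median of -0.37 over 19 genes and 2 higher and 2 lower without overlap. Lcn2, an iron-binding protein of neutrophils that inflamed epithelia also make, had signals of 172, 55.3 and 90.9 on the wt arrays and 12572, 566 and 917 on the Dbl arrays (log2 difference 4.29, SE 1.64, adjusted p = 0.423). Its log2 difference was 6.19 between the replicate 1 arrays and 3.34 between replicates 2 and 3, and a second probe set had one of -0.78. The summed signal of the list was 2815, 2649 and 2653 on the wt arrays and 14007, 2847 and 3288 on the Dbl arrays, and without Lcn2 it was 2643, 2594 and 2562 in wt and 1435, 2280.4 and 2371 in Dbl, lowest on Dbl replicate 1.

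Of 41 measured immediate early genes and genes of the JNK and NF-kB pathways, 31 had a positive and 10 a negative difference, 14 were higher and 2 lower without overlap, and the median was 0.55. Gadd45a was the 1 call, and Gadd45b, its close relative, had signals of 2936, 3166 and 2894 on the wt arrays and 1691, 242 and 202 on the Dbl arrays (log2 difference -2.78, SE 0.61, adjusted p = 0.0598) and was called with the block (adjusted p = 0.0274 with the replicate block and 0.000903 to 0.315 over all alternatives). Nfkbia, the inhibitor that NF-kB itself induces, had signals of 342, 329.8 and 426 on the wt arrays and 1611, 1054 and 910.2 on the Dbl arrays (log2 difference 1.67, SE 0.43, adjusted p = 0.13), with all Dbl arrays above all wt arrays. The medians were 0.71, 0.52 and 0.41 for replicates 1, 2 and 3.

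Genes of protein synthesis had mostly negative differences. Of 32 measured ribosomal protein genes 14 were lower and 0 higher without overlap, 30 had a negative difference, and the median was -0.67. It was -0.66, -0.79 and -0.73 for replicates 1, 2 and 3, nearly the same on each pair of arrays. None was called without the block, and Rps18 and Rpsa were called lower with it. Rps18 had signals of 38059.8, 31252 and 30378 on the wt arrays and 17711, 11944 and 11868 on the Dbl arrays (log2 difference -1.28, SE 0.37, adjusted p = 0.187; adjusted p = 0.0241 with the replicate block and 0.0219 to 0.586 over all alternatives). Many ribosomal protein genes have near-identical copies elsewhere in the genome, so their probe sets can bind more than 1 transcript.

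Of 37 translation factors 11 were lower and 2 higher without overlap, with a median of -0.44, and Eif5b was called. Pabpc1, which binds the poly(A) tails of messenger RNA, had signals of 29934, 32113 and 25734 on the wt arrays and 11632, 5078 and 3105 on the Dbl arrays (log2 difference -2.36, SE 0.59, adjusted p = 0.118) and was called with the block (adjusted p = 0.02 with the replicate block and 0.0193 to 0.495 over all alternatives). Eif5 and Eif1ax, factors of start codon selection, had differences of -1.17 (adjusted p = 0.217) and -1.40 (adjusted p = 0.325).

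Protein folding genes split. Of 40 measured, 8 were lower and 3 higher without overlap, and the median was -0.07. The 4 called with the block were all lower. Dnajb1, a partner of the heat shock protein Hsp70, had signals of 4618, 3408 and 4003 on the wt arrays and 1982, 634 and 672 on the Dbl arrays (log2 difference -2.07, SE 0.46, adjusted p = 0.0686; with the block 0.0158). P4hb, the protein disulfide isomerase, had signals of 5834, 7217 and 8144 on the wt arrays and 2477, 1879 and 1919 on the Dbl arrays (log2 difference -1.75, SE 0.42, adjusted p = 0.0942; with the block 0.0152). The mitochondrial chaperonin Hspe1 and the chaperonin subunit Cct5 had differences of -1.36 (adjusted p = 0.0897) and -1.16 (adjusted p = 0.41), with 0.02 and 0.0411 with the block. Over all alternatives the adjusted p of these 4 genes reached 0.315, 0.315, 0.342 and 0.938.

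Defence against oxidation had Hmox1 as its 1 call of 30 genes, with 5 lower and 3 higher without overlap and a median of 0.10. The lower ones included enzymes of the glutathione system. Gclc, the catalytic subunit of the first step of glutathione synthesis, had a difference of -1.49 (adjusted p = 0.124). The transferase Gstm5 had signals of 23823, 15940.5 and 16458 on the wt arrays and 10261, 7306 and 7552 on the Dbl arrays (log2 difference -1.15, SE 0.39, adjusted p = 0.306; adjusted p = 0.0464 with the replicate block and 0.0238 to 0.779 over all alternatives), and Gstm1 had a difference of -1.42 (adjusted p = 0.154). The transferases of this family share sequence, and a probe set can bind more than 1 of them.

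Of 15 genes of the hypoxia response and of metallothionein, 4 were lower and 2 higher without overlap, with a median of -0.19. Ndrg1, a gene that hypoxia induces, had signals of 27251, 15342 and 17673 on the wt arrays and 12947, 3762 and 4327 on the Dbl arrays (log2 difference -1.71, SE 0.53, adjusted p = 0.24) and was called lower with the block (adjusted p = 0.0346 with the replicate block and 0.0203 to 0.685 over all alternatives). Mt2, a metallothionein whose gene family gave the promoter of the transgene, had signals of 1914, 4999.7 and 4993 on the wt arrays and 5932, 15086 and 13822 on the Dbl arrays (log2 difference 1.56, SE 0.84, adjusted p = 0.651). Its Dbl arrays were all above its wt arrays without passing the test.

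Of 18 glycolytic genes, 1 were higher and 1 lower without overlap. Pgam2, the muscle form of phosphoglycerate mutase, had signals of 14129, 4878 and 5787 on the wt arrays and 2821, 179 and 177 on the Dbl arrays (log2 difference -4.04, SE 1.39, adjusted p = 0.33) and was called lower with the block (adjusted p = 0.0478 with the replicate block and 0.0147 to 0.776 over all alternatives), and the median was 0.10. Pfkp, a form of phosphofructokinase, had a difference of 1.42 (adjusted p = 0.431) with the opposite sign. Of 18 genes of cholesterol synthesis none was called, 3 were lower and 1 higher without overlap, and the median was -0.28. Dhcr7 and Ebp, 2 late enzymes of that path, had differences of -2.30 (adjusted p = 0.423) and 2.09 (adjusted p = 0.363).

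Of the signaling lists, TGF beta and BMP genes had a median of 0.02 over 43 genes, with Smad1 called and 4 lower and 1 higher without overlap. Chrd, an antagonist of BMPs, and Tgfbr2, a receptor of TGF beta, had differences of -2.38 (adjusted p = 0.0934) and -2.36 (adjusted p = 0.392), both without overlap, the latter from signals near background. Bmp7, a ligand needed for lens formation, had signals of 834, 523 and 668 on the wt arrays and 585, 63.4 and 47.9 on the Dbl arrays (log2 difference -2.45, SE 0.98, adjusted p = 0.457), where Dbl replicate 1 lay within the wt range.

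The 41 Wnt genes had a median of -0.25, with 7 lower and 2 higher without overlap and none called. The corepressor Tle3, the ligand Wnt6 and the secreted protein Dkk3 had differences of -1.35 (adjusted p = 0.255), -1.35 (adjusted p = 0.453) and -1.04 (adjusted p = 0.565). The 19 Notch genes had a median of 0.22, 2 higher and 1 lower without overlap and none called. Rbpj, the transcription factor of the pathway, was lower without overlap (-0.84, adjusted p = 0.545), and Numb, an inhibitor of Notch, had a difference of 2.35 (adjusted p = 0.461) with overlapping arrays.

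Genes that promote apoptosis had a median of -0.01 over 31 genes, with 4 lower and 1 higher without overlap. Fas, the death receptor, had signals of 575, 425 and 319 on the wt arrays and 182, 7.93 and 16.5 on the Dbl arrays (log2 difference -3.89, SE 1.11, adjusted p = 0.185), and Faf1, which binds it, had signals of 1695, 1104 and 1360.4 on the wt arrays and 495, 401 and 445 on the Dbl arrays (log2 difference -1.62, SE 0.47, adjusted p = 0.191). Both were lower on every Dbl array and neither passed the test. Genes that oppose apoptosis had a median of 0.12 over 19 genes, with 1 higher (Ier3, 1.70, adjusted p = 0.516) and 0 lower without overlap. The 36 cell cycle genes had a median of 0.12, with 2 higher and 1 lower without overlap. E2f1 had the smallest p of that list, 0.0416 unadjusted, and no gene of these 3 lists was called with or without the block.

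The angiogenic and antiangiogenic factors had a median of 0.21 over 23 genes, with 3 higher and 0 lower without overlap and none called. Nrp1, a coreceptor for vascular endothelial growth factor, had a difference of 1.33 (adjusted p = 0.53), and Ccn2, a connective tissue growth factor, of 1.52 (adjusted p = 0.595). Markers of blood endothelium had a median of 0.61 over 17 genes, with 4 higher and 0 lower without overlap. The angiopoietin receptor Tek and the endothelial cadherin Cdh5 had differences of 1.37 (adjusted p = 0.541) and 1.38 (adjusted p = 0.571), from wt signals near background. The summed signal of the endothelial markers was 3202, 2544 and 3356 on the wt arrays and 4633, 4118 and 4371 on the Dbl arrays, without overlap. No endothelial marker passed the test.

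Summed markers of the retina differed more between replicate 1 and the other arrays than between the genotypes. The 18 photoreceptor markers summed to 5554, 17751 and 19904 on the wt arrays and 7098, 29619 and 34956 on the Dbl arrays. Both replicate 1 arrays were low, and Dbl replicates 2 and 3 were above wt replicates 2 and 3. Sag, the arrestin of rods and the brightest marker of the list, had signals of 500.1, 4712 and 4091 in wt and 248, 9088 and 9424 in Dbl. The 19 inner retina and neuron markers summed to 9830.4, 29833 and 31794 in wt and 7200.1, 43208 and 50242 in Dbl, and Snap25, a protein of synaptic vesicle release, had signals of 630.3, 7022 and 5538 in wt and 237, 13849 and 11759 in Dbl. None of these genes was called. 1 photoreceptor marker (Guca1a, 1.06, adjusted p = 0.728) and 0 inner retina markers were higher without overlap, and the medians were 0.23 and 0.04. The part of retinal RNA in the differences between Dbl and wt lenses was not tested.

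Markers of the retinal pigment epithelium, iris and ciliary body showed another pattern, with the Dbl replicate 1 array alone at the top. The 11 measured genes summed to 7641, 7416 and 8459.7 in wt and 30972, 7114 and 9418 in Dbl. Pmel, a protein of pigment granules, had signals of 551, 599 and 783 in wt and 4796, 319 and 351 in Dbl. None of the 11 was called, none had groups without overlap, and the median was 0.15. Markers of the corneal and surface epithelium summed to 33583, 18844 and 22011 in wt and 42916, 15245 and 17398 in Dbl, with a median of -0.03 over 19 genes and 3 lower and 0 higher without overlap. Ivl, the involucrin of surface epithelia, had a difference of -2.41 (adjusted p = 0.225) from signals near background.

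Markers of red blood cells summed to 3689, 13194 and 12313 in wt and 11821, 21933 and 20964 in Dbl, with a median of 0.25 over 10 genes and none called. On all arrays but wt replicate 1 most of that sum came from Car2, a carbonic anhydrase that other eye tissues also express, with signals of 799, 9469 and 8193 on the wt arrays and 7366, 15428 and 14067 on the Dbl arrays. The globin genes Hbb-b2 and Hba-a1 were higher without overlap (log2 differences 2.06 and 0.90, adjusted p = 0.679 and 0.838), and the erythroid factor Klf1 was lower without overlap (-1.29, adjusted p = 0.67). Skeletal muscle markers summed to 12659, 8648 and 11032 in wt and 9463, 9773 and 9129 in Dbl, with a median of -0.17 over 24 genes, 1 higher and 2 lower without overlap and none called. The part of these tissues in the differences was not tested either.

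**Figure D4:**
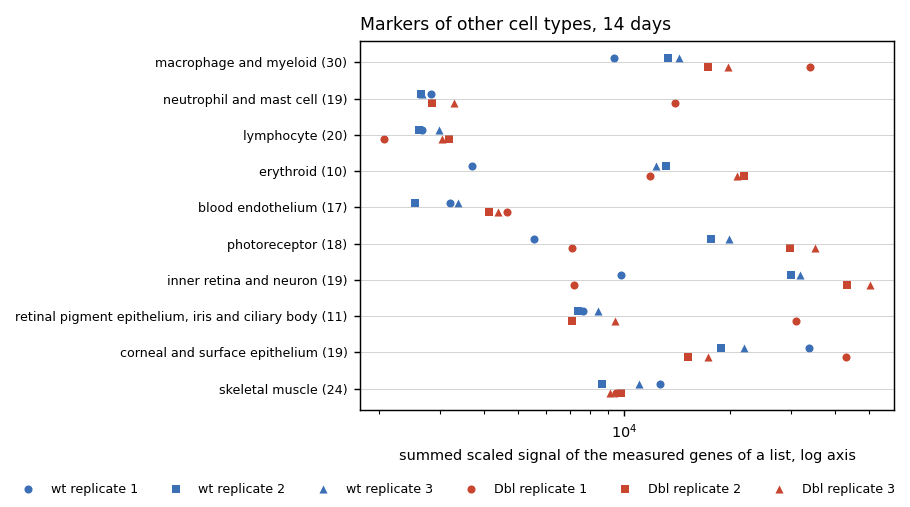
Summed scaled signal (log axis) of the measured marker genes of 10 other cell types or tissues on each array of 14 days (blue wt, red Dbl, shape for the replicate number). Photoreceptor and inner retina sums are low on both replicate 1 arrays. Pigment epithelium and neutrophil sums are high on Dbl replicate 1 alone (the latter through Lcn2). Macrophage and endothelial sums separate the genotypes on all arrays, the former only with Ctss included.

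The Dbl lenses of 2 and 42 days, which share no array with those of 14 days, gave the same sign for all 40 probe sets called at 14 days. At 2 days 31 of the 40 were without overlap in the same direction, where 4.93% of all probe sets were higher and 13.3% lower without overlap, and at 42 days 37 were, where 7.51% were higher and 14.2% lower. In the same fit 13 of the 40 were called at 2 days and 22 at 42 days. The change was larger in size at 14 days than at 2 days for 35 of the 40 and than at 42 days for 32, and since the probe sets were chosen at 14 days that direction carries no weight.

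The difference itself was tested over all probe sets, as the Dbl effect at 14 days minus that at another age. No probe set was called against 2 days (limma, lowest adjusted p = 0.999) or against 42 days (lowest adjusted p = 0.9997), and at unadjusted p below 0.05 there were 399 (3.21%) and 481 (3.87%). Mmp12 had a log2 difference of 0.31 at 2 days, 4.26 at 14 days and 2.32 at 42 days, where the step from 2 to 14 days was 3.95 (unadjusted p = 0.000869, adjusted p = 0.999). Ccl2 stood at 5.72, 6.19 and 4.72 at the 3 ages. The median over the fiber genes was -2.27 at 2 days and -2.06 at 42 days, and that over the macrophage and myeloid genes 0.70 and 0.995. No effect of Dbl can thus be called particular to 14 days. The test and the counts at 2 and 42 days took the ages from the labels. They included Dbl replicate 2 of 2 days, which correlated at 0.958 with Dbl replicate 1 of 42 days. With Dbl replicate 1 of its own age it correlated at 0.791. Dbl replicate 2 of 42 days correlated at 0.951 with Dbl replicate 1 of 2 days and at 0.795 with Dbl replicate 1 of 42 days. Whether age labels were exchanged was not tested. The lack of calls in the test therefore does not show that the effect was equal at the 3 ages.

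**Figure D5:**
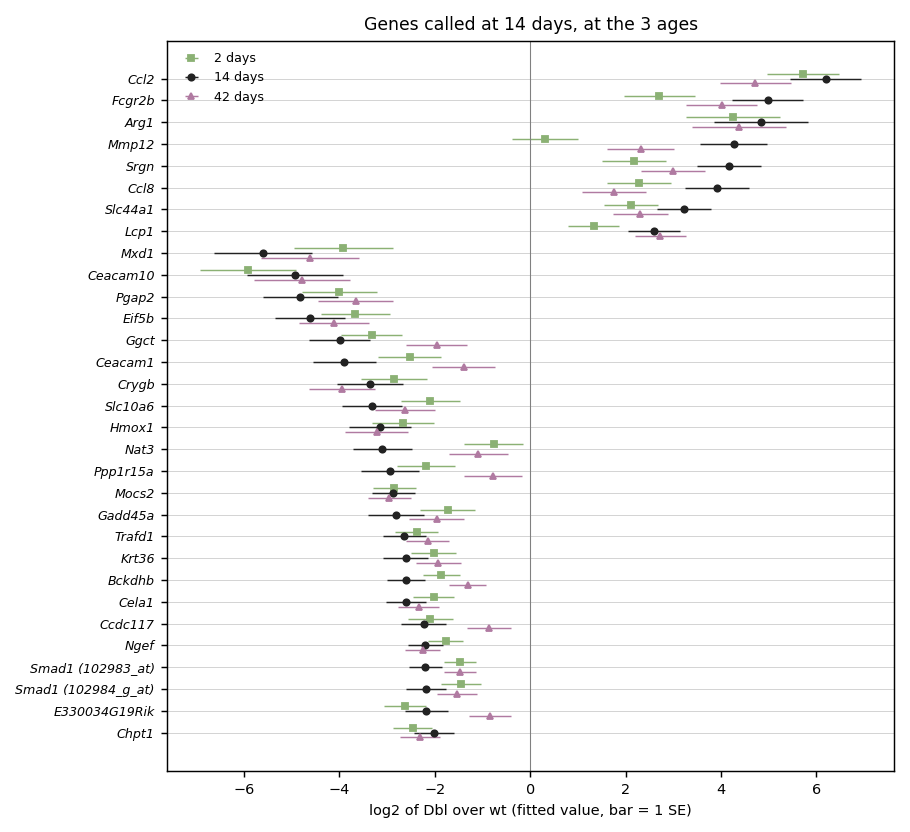
Fitted log2 difference (Dbl over wt, bars 1 SE) at 2, 14 and 42 days for each gene with 1 symbol called at 14 days. All points lie on the same side of 0 at the 3 ages, and Mmp12 is the gene closest to 0 at 2 days.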

How the data were processed

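Whole lenses were pooled, and 1 array was hybridised with biotin-labelled cRNA of each pool. The deposited intensity values are signals per probe set that the authors quantified with the MAS5 algorithm of Affymetrix Microarray Suite, on a linear scale. A later normalization in GeneSpring that the methods describe is not in them. The deposited arrays had different scales, so each was scaled to a trimmed mean of 500 (2% trimmed at each end), signals below 1 were set to 1, and log2 was taken. Of 12488 probe sets 66 controls were left out, and 12422 were tested. The platform annotation gave 1 symbol to 10833 of them, several to 396 and none to 1193, and a gene was read on its probe set with the highest mean signal over the 6 arrays.

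The fit was limma 3.58.1 in R 4.3.3 over all 18 arrays, with a mean for each of 6 groups and a variance trend, and p-values were adjusted by Benjamini-Hochberg over all probe sets. Called means an adjusted p below 0.05. Without overlap means that the 3 Dbl arrays were all above, or all below, the 3 wt arrays. Replicates were separate pools of lenses, and 3 arrays a group limit the precision. At 14 days, deviations from the group mean correlated between the Dbl and wt arrays of the same number (r = 0.350, 0.227 and 0.181 over all probe sets). Each array correlated best with its own number, so the numbers pair the arrays of 14 days, a pairing read from the data and the labels' replicate numbers. The block fit over 18 arrays paired by number at every age. At 2 days wt replicate 2 correlated at 0.924 with Dbl replicate 3 and at 0.559 with Dbl replicate 2. The shared spread behind the block calls includes such pairs. The study's rule, a ratio of means of at least 1.5 with a rank test, was an alternative. As 3 against 3 arrays cannot go below an exact two-sided p of 0.1, an exact rank test at 0.05 calls nothing, and groups without overlap, which reach that lowest p, were taken to pass it.

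The text names every gene called at 14 days, up to 4 members with the smallest p of each of 38 lists, all crystallins and a few fiber genes, and other probe sets of these genes where they differ. 1 of the lists is not reported here. The members, lists, tests and motifs were chosen with earlier results of these data known, and the lists were written from common knowledge of markers and pathways. The fit was tested on simulated data before it was run. The simulated arrays had independent noise, without the deviations that arrays of the same number share, so that test checked only the working of the fit. Tables, promoters and plots were made in Python 3.11.15 with numpy 2.4.6, pandas 2.3.3 and matplotlib 3.10.9.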

Additional observations from a re-analysis of the deposited data

How the results depend on the processing

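Against the 40 probe sets called, 109 were called with the replicate block and 300 with it on the 6 arrays of 14 days alone. Beside the calls given above with the block, it changed no other call of a named gene. The 6 arrays without a block gave 10 and a block for the deposited scale 78. Leaving out replicate 2 of Dbl at 2 and at 42 days, which each correlated best with a Dbl array of the other age, gave 65. Leaving out both replicate 1 arrays gave 13, and leaving out each array of 14 days in turn gave 2 to 100. The study's rule, taken as a ratio of at least 1.5 and groups without overlap, gave 1562, with 714 higher and 848 lower. The signal floor at the 40th percentile gave 28, of which 15 were among the 40, and median scaling gave 34 and moved the median of all probe sets from 0.03 to -0.09. The test between 14 and 2 days, with 0 calls, had 2 with that floor, and that between 14 and 42 days had 2 with the floor and 1 without both replicate 1 arrays.

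No called probe set changed sign under any alternative run. Of those not called, quantile normalization turned Cryge to 0.032 and Cryba1 to 0.26. Among retinal markers Rgr turned to 0.033 with the floor and 0.20 without both replicate 1 arrays, and Abca4 to -0.077 without these. Leaving out 1 array at a time, the log2 difference ran from -1.97 to 0.23 for Rgr, from -0.0074 to 1.37 for Unc119 and from -0.21 to 0.68 for Abca4. Of 646 medians recomputed over the 38 lists, 66 changed sign. The cause of these changes was not tested. Signals near background bound what can be said of most genes that rose, and single arrays decide how many probe sets are called.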
